A study of Mus musculus with 16 samples.

Results

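Metallothioneins and the zinc transporters that work beside them were followed across hypothalamic RNA and ribosome-bound RNA of PNOC neurons, the cells that express the neuropeptide precursor prepronociceptin. The members are 8 of the 45706 genes in the count table, chosen by gene name: Mt1, Mt2, Mt3, Mtf1, Slc30a1, Slc30a3, Slc30a10 and Slc39a14. Mt2 was selected on its level in the input libraries, where it differed between genotypes, so its values in that contrast are given as a description. All 8 members had enough counts to be tested in every comparison.

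The animals were mice on a C57Bl/6N background, fed chow and sampled in the random-fed state, aged 12 weeks per one protocol label and 10 to 12 weeks per another. All groups carried a Cre-dependent transgene at the ROSA locus for the ribosomal protein L10a fused to GFP, so that anti-GFP antibodies precipitate ribosomes of cells with Cre (bacTRAP). Each of 8 pools held the hypothalamic tissue of 4 animals and gave an input library, from lysate set aside before precipitation, and a pulldown library, from the precipitated ribosomes. Pools 1 to 4 were controls, labelled Lepr-flox in one field and wild type in another, and pools 5 to 8 carried a deletion of the leptin receptor gene Lepr in cells that express Pnoc. The Cre allele that the tag requires is not named in the control label. The 4 groups of 4 libraries are control input, control pulldown, Lepr-deletion input and Lepr-deletion pulldown.

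Metallothioneins are small cysteine-rich proteins that bind zinc and copper and buffer their free concentration. Mt1 and Mt2 are induced by zinc, glucocorticoids and stress, and in the brain they are known mainly from astrocytes, whereas Mt3 is the form typical of the brain and is also found in neurons. The transcription factor encoded by Mtf1 senses zinc and binds metal response elements in the promoters of Mt1, Mt2 and Slc30a1. Transporters of the SLC30 family move zinc out of the cytosol and those of the SLC39 family move it in.

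Mt1 (ENSMUSG00000031765), Mt2 (ENSMUSG00000031762) and Mt3 (ENSMUSG00000031760) lie next to each other on mouse chromosome 8 of the build GRCm38. Mt3 spans chr8:94152607-94154148, Mt2 chr8:94172618-94173567 and Mt1 chr8:94178883-94180327. The gap between Mt3 and Mt2 is 18469 bases and that between Mt2 and Mt1 is 5315 bases, and the remaining family member Mt4 lies 13575 bases before Mt3. The other members are scattered. Mtf1 (ENSMUSG00000028890) is at chr4:124802549-124849800, Slc30a1 (ENSMUSG00000037434) at chr1:191906697-191913248 and Slc30a10 (ENSMUSG00000026614) at chr1:185454848-185468762. Slc30a3 (ENSMUSG00000029151) is at chr5:31086106-31108244 and Slc39a14 (ENSMUSG00000022094) at chr14:70303467-70351452.

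The promoters are shown because Mtf1 and its targets are among the members. RefSeq promoter sequences (GRCm38.p6), which run from 250 bases before a transcript start to 50 after it, were found for 7 of the 8 members, with 8 starts in all, and not for Slc39a14. Both strands were searched for the metal response element core, TGCACNC or TGCGCNC, and overlapping matches were merged into 1 stretch. Mt2 held 4 stretches, 3 of them before the start. Its sequence before the start (chr8:94172368-94172617, plus strand) is printed with the cores in capitals, beside that of Mt3 (chr8:94152357-94152606, plus strand), which held no core before its start.
Mt2: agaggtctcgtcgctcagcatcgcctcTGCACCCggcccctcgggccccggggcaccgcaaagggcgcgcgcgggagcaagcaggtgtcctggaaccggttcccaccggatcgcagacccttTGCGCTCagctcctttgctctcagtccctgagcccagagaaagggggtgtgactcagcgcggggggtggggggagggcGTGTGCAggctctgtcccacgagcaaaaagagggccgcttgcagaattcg
Mt3: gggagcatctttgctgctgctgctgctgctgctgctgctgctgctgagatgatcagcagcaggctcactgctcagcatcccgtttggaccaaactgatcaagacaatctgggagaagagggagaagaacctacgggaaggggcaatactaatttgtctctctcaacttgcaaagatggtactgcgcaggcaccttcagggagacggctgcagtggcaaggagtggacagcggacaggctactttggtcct

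The table's start of Mt1 lies 206 bases inside the span annotated for that gene, and that of Slc30a1 lies 84 bases inside its span, so only 30 bases around the core before the start are printed for these genes. The Mt1 site is chr8:94179055-94179084 and the Slc30a1 site is chr1:191906727-191906756, both on the plus strand, with the core in capitals.
Mt1: cggtcccgctgTGCACACtggcgctccagg
Slc30a1: acgggggttccGAGTGCAaagcaaagtttt

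Counting also the 50 bases after the start, Mt1 held 3 stretches, Slc30a1 and Slc30a10 held 2 each, and Mt3 held 1. Slc30a3 had 1 at the first of its 2 starts and none at the other, and Mtf1 held none. Of 32851 promoters of the same length, 25.7% held at least 1 such stretch, 6.14% at least 2 and 1.31% at least 3. The STAT-type motif TTCNNNGAA, which reads the same on both strands, was in none of the windows of the members and in 8.3% of all promoters. A match is a description of the letters in these windows and not a binding site, and other starts of these genes were not searched.

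**Figure D1:**
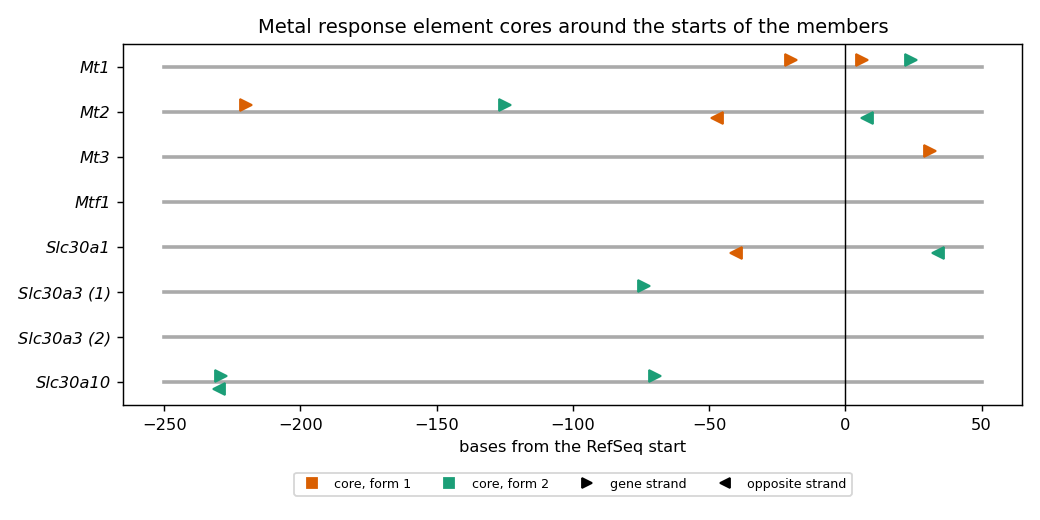
Position of metal response element cores in bases from the RefSeq start, 1 line per start of 7 members, with the right-pointing marks for the gene's strand and left-pointing marks for the opposite strand. Form 1 is TGCACNC and form 2 is TGCGCNC. Mt2 has 4 cores spread over the window, and the 3 of Mt1 lie close to its start.

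Estimated counts per library summed to 65066280 to 74726368 in input and to 64435952 to 78623636 in pulldown. Levels below are CPM, counts relative to library size after scaling by the trimmed mean of M values (TMM) over all 16 libraries, unless TPM, which also divides by transcript length, is named. Pnoc, the gene that defines the tagged cells, was at 2.21 to 2.97 CPM in the 8 input libraries and at 6.96 to 10.1 CPM in the 8 pulldown libraries. Lepr was not lower where its deletion is labelled. It was at 3.49 to 5.11 CPM in control input and 4.78 to 8.14 CPM in Lepr-deletion input, and at 1.42 to 1.86 CPM in control pulldown and 2.42 to 2.82 CPM in the pulldown libraries labelled Lepr deletion. A total over the whole gene cannot show which part was removed, so the genotypes below are those of the labels. Pools 1 and 5 stood apart from the rest of their groups: on the first principal component of the pulldown libraries, with 42.9% of the variance, pool 1 was at -3.11 where control pools 2 to 4 were at 8.23 to 12.7, and pool 5 was at 3.60 where pools 6 to 8 were at -8.13 to -13.2. The input libraries of both pools were displaced in the same way, at -4.43 and 2.70. Fold changes of the members that rest on these pools are given with and without them.

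Mt1 and Mt2 were the most abundant members in input. By TPM, on which genes can be compared, control input held 193 ± 14.9 (SD, n = 4) TPM of Mt2 and 165 ± 20.2 TPM of Mt1, whose ranges over the libraries overlapped. Mt3 followed at 24.1 ± 3.16 TPM, then Mtf1 at 10.9, Slc30a1 at 7.496, Slc30a10 at 6.00, Slc39a14 at 3.53 and Slc30a3 at 0.570 TPM, and from Mt1 down no neighbours in this order overlapped. In control pulldown the order differed, with Mt1 at 45.2 ± 7.67, Mt3 at 31.6 ± 3.03 and Mt2 at 29.7 ± 2.93 TPM. There Mt3 and Mt2 overlapped, and the remaining members kept the order Mtf1 (21.04), Slc30a1 (13.6), Slc30a10 (7.74), Slc39a14 (5.81) and Slc30a3 (1.67 TPM). The groups labelled Lepr deletion had the same order in pulldown. In their input Mt1 (156 ± 16.3 TPM) and Mt2 (155 ± 16.4 TPM) were at one level.

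**Figure D2:**
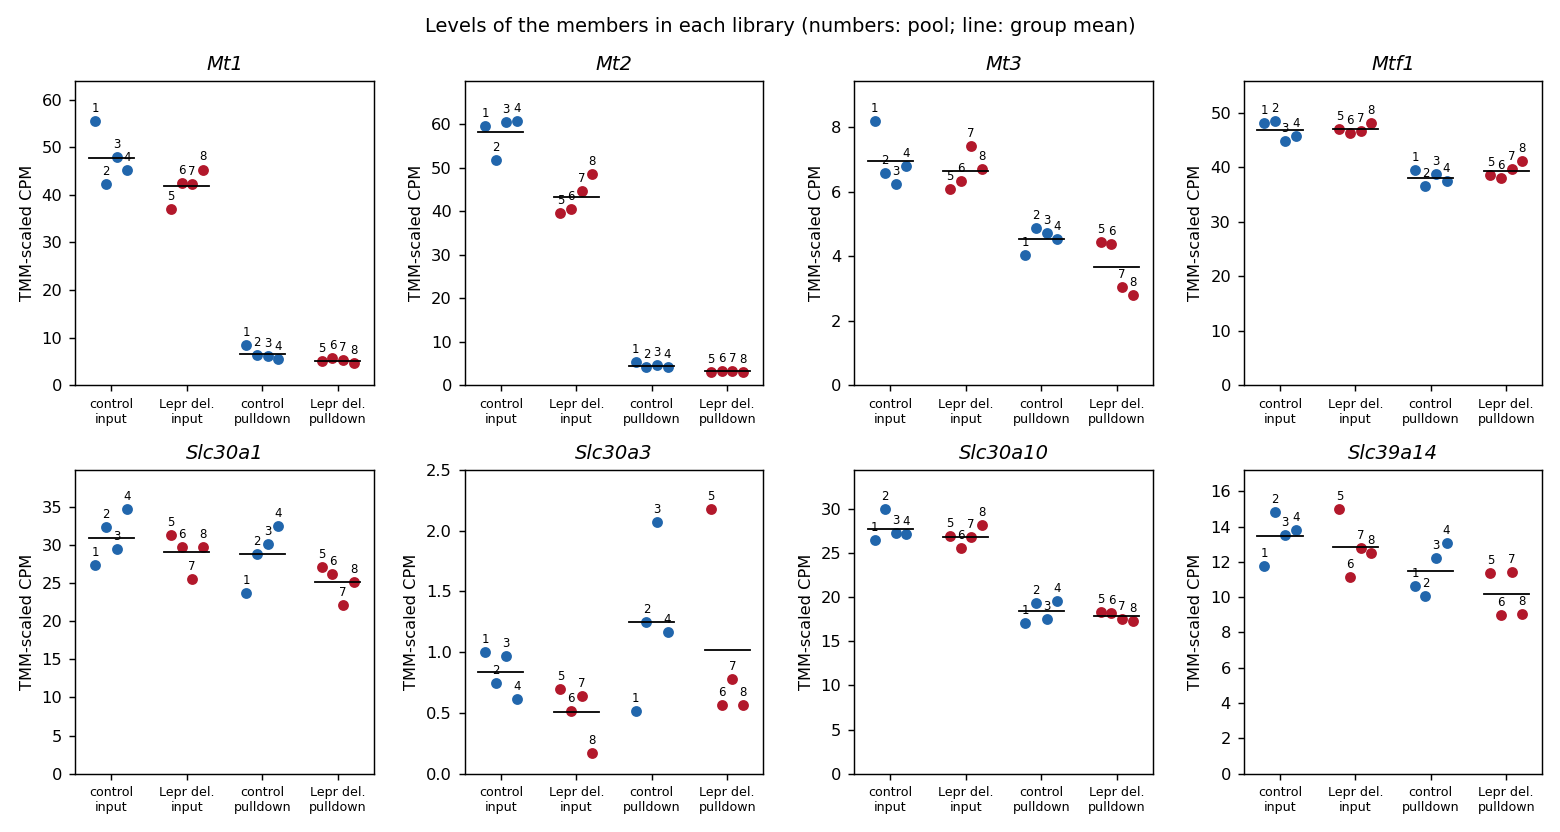
TMM-scaled CPM of each member in the 16 libraries, 1 panel per gene with its own axis from 0, points for libraries numbered by pool and a line for each group mean. Mt1 and Mt2 drop from input to pulldown in both genotypes, and the Mt2 points of pools 5 to 8 lie below those of pools 1 to 4 in each fraction.

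Mt1 and Mt2 were the members most depleted from the ribosomes of PNOC neurons. In control pools 1 to 4, Mt1 was at 55.6, 42.3, 48.0 and 45.2 CPM in input and at 8.36, 6.32, 6.13 and 5.38 CPM in pulldown. In pools 5 to 8 it was at 37.0, 42.5, 42.4 and 45.4 CPM in input and at 5.02, 5.77, 5.20 and 4.63 CPM in pulldown. Every pulldown value lay far below every input value. In the quasi-likelihood test of edgeR, with Benjamini-Hochberg adjustment over all genes tested, Mt1 was 7.39-fold lower in control pulldown than in input, a log2 fold change of -2.89 (SE 0.13, adjusted p = 3.97e-09). In the pools labelled Lepr deletion the log2 fold change was -3.03 (SE 0.08, adjusted p = 3.61e-12).

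Mt2 was depleted further. Pools 1 to 4 held 59.6, 51.7, 60.5 and 60.8 CPM of Mt2 in input against 5.22, 4.09, 4.53 and 4.05 CPM in pulldown. Pools 5 to 8 held 39.5, 40.5, 44.6 and 48.6 CPM in input against 3.09, 3.19, 3.31 and 3.07 CPM in pulldown. The fractions did not overlap in either genotype, and the pulldown level of a pool was 0.0632 to 0.0875 of its input level over the 8 pools. By the same test, the log2 fold change was -3.72 (SE 0.09, 13.2-fold lower, adjusted p = 2.16e-11) in control and -3.78 (SE 0.08, 13.8-fold lower, adjusted p = 2.77e-13) in Lepr deletion. The input libraries of these comparisons are those from which Mt2 was chosen.

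Mt3, the brain form, stayed nearer to its input level. Control pools 1 to 4 had 8.20, 6.59, 6.24 and 6.79 CPM of Mt3 in input and 4.04, 4.87, 4.70 and 4.54 CPM in pulldown. Pools 5 to 8 had 6.09, 6.34, 7.41 and 6.71 CPM in input and 4.43, 4.39, 3.05 and 2.78 CPM in pulldown. The fractions did not overlap, and among the pulldown libraries pools 7 and 8 were low. Pulldown over input was at a log2 value of -0.63 (SE 0.10, adjusted p = 0.000227, edgeR) in control and -0.87 (SE 0.15, adjusted p = 0.000249, edgeR) in Lepr deletion. Without pool 1 the control value was -0.48 (adjusted p = 0.000745, edgeR), and without pool 5 the other was -1.01 (adjusted p = 0.000269, edgeR). With library totals the values were -0.088 in control and -0.41 in Lepr deletion. Of 15 alternatives in control, 1 lost the call and 2 changed sign.

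Of the 8 members, 6 were lower in pulldown than in input in control and 0 were higher by the same edgeR test, and in 5 the fractions did not overlap. Among all 17570 genes tested, 64.8% passed (34.6% as lower and 30.1% as higher), and the fractions did not overlap in 59.5% (31.1% with pulldown below input). The median log2 fold change was -0.46 over the members and -0.02 over all genes. In Lepr deletion 7 members were lower and 0 higher, and 5 did not overlap, against 61.6% of 17423 genes passing (32.8% as lower and 28.8% as higher) and 56.4% not overlapping (29.8% with pulldown below input). The median there was -0.47 over the members and -0.01 over all genes. These comparisons of pulldown with input call so many genes that the share of members is read only with the size of each difference.

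The scaling set the zero of these comparisons. With library totals in place of the trimmed mean, the median of all genes moved to 0.53 in control and 0.44 in Lepr deletion, and on log2(TPM + 1) it moved to 0.75 and 0.70. The calls in control changed from 5297 higher and 6084 lower to 10706 higher and 3338 lower with library totals, and in Lepr deletion from 5026 and 5714 to 10002 and 3436. Mt1 and Mt2 were lower in pulldown under every scaling run, whereas Mt3, Mtf1, Slc30a1, Slc30a10 and Slc39a14 had a positive fold change under at least 1 of them. Relative to the median of all genes, control Mt3 lay at -0.61 with either count scaling and at -0.37 on log2(TPM + 1). Slc30a10 lay at -0.59 and -0.43, and Slc39a14 at -0.23 and -0.17. For Mtf1 the relative value changed sign in control, from -0.30 to 0.14, and for Slc30a1 from -0.10 to 0.02. Slc30a3, the member above its input level, also changed sign in control, from 0.59 to -0.04, and went from 1.02 to 0.02 in Lepr deletion.

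**Figure D3:**
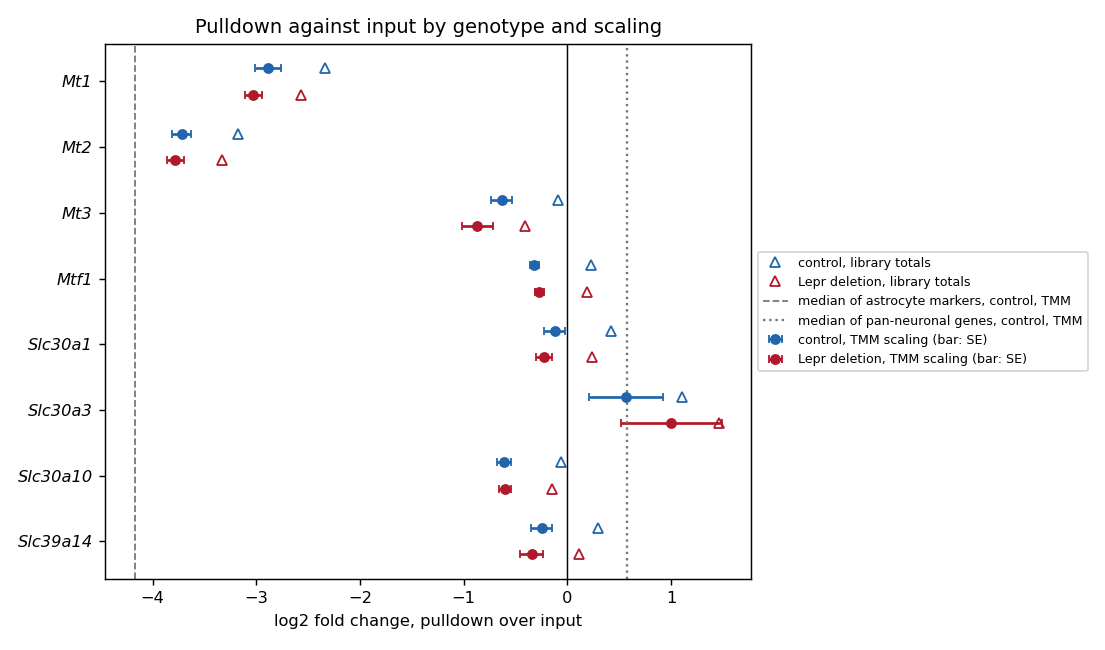
Log2 fold change of pulldown over input for each member, in control (blue) and Lepr deletion (red), with TMM scaling (filled circles, bars are SE) and with library totals (open triangles). Vertical lines give the median of the astrocyte markers, -4.17, and of the pan-neuronal genes, 0.58, in control. Mt1 (-2.89 in control) and Mt2 (-3.72) lie between zero and the astrocyte line with TMM scaling, far to the left of the other members.

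Mtf1, the zinc sensor, differed little between fractions. It was at 44.8 to 48.5 CPM in control input and 36.5 to 39.5 CPM in control pulldown, and at 46.3 to 48.1 and 38.0 to 41.1 CPM in Lepr deletion. With the trimmed mean its log2 fold change was -0.32 (SE 0.05, adjusted p = 8.74e-05, edgeR) in control and -0.27 (SE 0.05, adjusted p = 0.000266, edgeR) in Lepr deletion, and with library totals the sign turned, at 0.23 and 0.19. Mtf1 overlaps the annotated gene 1110065P20Rik, and its estimated counts were whole to within 0.01 in 0 of 16 libraries, so its values are uncertain.

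Among the exporters, Slc30a1, which moves zinc out across the plasma membrane, was near its input level. It was at 27.4 to 34.6 CPM in control input and 23.7 to 32.5 CPM in control pulldown, and at 25.5 to 31.3 and 22.1 to 27.1 CPM in Lepr deletion. The ranges overlapped in both genotypes. Its log2 fold change was -0.12 (SE 0.10, adjusted p = 0.303, edgeR) in control and -0.22 (SE 0.08, adjusted p = 0.0239, edgeR) in Lepr deletion. With the pool as a block, which pairs the libraries of a lysate, the control value also passed, at -0.13 (adjusted p = 0.0371, edgeR). The Lepr-deletion call was lost without pool 6 (-0.22, adjusted p = 0.0829, edgeR) and without pool 8 (-0.21, adjusted p = 0.0850, edgeR). Slc30a1 overlaps the annotated gene 1700034H15Rik, and its estimated counts were whole to within 0.01 in 3 of 16 libraries, so its values are also uncertain.

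Slc30a10, an exporter best known for manganese, was lower in pulldown than in input by a similar amount in both genotypes. It was at 26.4 to 29.9 CPM in control input and 17.04 to 19.6 CPM in control pulldown, and at 25.6 to 28.2 and 17.3 to 18.3 CPM in Lepr deletion. The fractions did not overlap. The log2 fold change was -0.61 (SE 0.07, adjusted p = 8.14e-06, edgeR) in control and -0.60 (SE 0.06, adjusted p = 7.86e-07, edgeR) in Lepr deletion, and with library totals the control value was -0.06 (adjusted p = 0.398, edgeR). Its counts were whole in 0 of 16 libraries, and it overlaps the annotated gene Gm2061.

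Slc30a3 encodes the transporter that loads zinc into synaptic vesicles, mainly of glutamatergic neurons. It was the least abundant member, with 10 to 60 counts in an input library and 43 to 184 in a pulldown library. In input, pools 1 to 4 had 57, 40, 60 and 36 counts and pools 5 to 8 had 38, 33, 38 and 10. In pulldown, pools 1 to 4 had 45, 117, 180 and 106 counts and pools 5 to 8 had 184, 52, 67 and 43. Pool 1 was thus the lowest of the control pulldown libraries and pool 5 the highest of the others. In CPM the pulldown level was above the input level in 7 of 8 pools, at 1.09 to 3.38 of it, and pool 1 was at 0.517 of it. The log2 fold change did not pass in either genotype, at 0.57 (SE 0.36, adjusted p = 0.186, edgeR) in control and 1.01 (SE 0.49, adjusted p = 0.0895, edgeR) in Lepr deletion. Without pool 1 the control value was 0.93 (adjusted p = 0.0108, edgeR) and without pool 5 the other was 0.51 (adjusted p = 0.336, edgeR). With the pool as a block the Lepr-deletion value passed, at 0.90 (adjusted p = 0.0378, edgeR). With library totals both values passed, at 1.11 in control and 1.46 in Lepr deletion, but the median of all genes had moved as given above, and relative to it the values on log2(TPM + 1) were near 0 in both genotypes.

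The importer Slc39a14, which carries zinc, iron and manganese into cells, was slightly lower in pulldown. It was at 11.8 to 14.8 CPM in control input and 10.1 to 13.1 CPM in control pulldown, and at 11.2 to 14.97 and 8.99 to 11.4 CPM in Lepr deletion. The ranges overlapped. Pulldown over input stood at -0.25 on the log2 scale (SE 0.10, adjusted p = 0.0437, edgeR) in control and -0.34 (SE 0.11, adjusted p = 0.0152, edgeR) in Lepr deletion. The control call was lost without pool 2 (-0.14, adjusted p = 0.290, edgeR) and without pool 3 (-0.28, adjusted p = 0.0874, edgeR), and the Lepr-deletion call without pool 8 (-0.30, adjusted p = 0.0641, edgeR). Of 15 alternatives in control, 7 kept direction and call, 5 lost the call and 3 changed sign. The authors' deposited control value was -0.23, with an adjusted p of 0.0502 (DESeq2).

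Other transporters of both families spread widely between fractions. Of 7 further SLC30 genes, 6 were tested, and in control 1 rose and 1 fell from input to pulldown with the trimmed mean: Slc30a9, at 0.53 (adjusted p = 1.17e-07, edgeR), and Slc30a7, at -0.39 (adjusted p = 0.00101, edgeR). In Lepr deletion 2 rose and 2 fell. Of 13 further SLC39 genes, 10 were tested, and 6 rose and 3 fell in control, and 3 rose and 3 fell in Lepr deletion. Slc39a12 and Slc39a8 were the most depleted of them, with log2 values of -4.32 and -3.64 in control and -3.97 and -3.21 in Lepr deletion, and Slc39a1 of -0.80 and -0.96. Slc39a3 was higher by 0.49 in control. The control median was -0.01 over the SLC30 genes and 0.23 over the SLC39 genes, beside -0.02 over all genes.

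Genes of copper and iron handling were mostly lower in pulldown, with 15 of 18 lower and 2 higher in each genotype. With pools 1 and 5 left out, 15 were lower in control and 14 in Lepr deletion. Trf, the iron carrier transferrin, was at -4.26 in control and -4.04 in Lepr deletion, and Heph, the ferroxidase hephaestin, at -4.72 and -4.89. The ferritin subunits Fth1 and Ftl1 were at -1.67 and -1.26 in control and at -1.79 and -1.35 in Lepr deletion. Their median log2 fold change was -0.75 in control, beside -0.02 over all genes. Of 7 vesicular zinc and synaptic partners of Slc30a3, 6 were tested in control, where 5 rose and 1 fell, and 7 in Lepr deletion, where 5 rose and 2 fell. Slc17a6, a vesicular glutamate transporter, was higher in pulldown by 0.44 and 0.27, and Slc32a1, the vesicular GABA transporter, by 1.06 and 1.13. Slc17a7, a glutamate transporter known from the same vesicles as Slc30a3 in the forebrain, had 0 to 15 counts in pulldown libraries. In input it had 183, 13, 11 and 5 counts in pools 1 to 4. Pools 5 to 8 had 15, 58, 71 and 7 counts there, so several input libraries were within the pulldown range.

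Glial markers fell from input to pulldown together with Mt1 and Mt2. All 16 astrocyte markers tested were lower in both genotypes, with medians of -4.17 in control and -3.91 in Lepr deletion and values from -4.85 to -0.83 in control. Of these 16 genes, 12 were more depleted than Mt2 in control and 10 in Lepr deletion, and 13 were more depleted than Mt1 in each genotype. The summed level of the list was 4090.86 to 4598.92 CPM in control input and 602.633 to 680.139 CPM in control pulldown, with no marker at 0 throughout a group. Within a pool the astrocyte sum in pulldown was 0.147 to 0.175 of that in input, while Mt2 was at 0.0632 to 0.0875, Mt1 at 0.102 to 0.150 and Mt3 at 0.411 to 0.754. The microglial sum was at 0.119 to 0.154 and the vascular sum at 0.0952 to 0.177, and the pan-neuronal sum was at 1.49 to 1.61. A sum weighs genes by their level, so it can differ from the median of its list, which was -4.44 for microglial markers in control. By the counts above, most single astrocyte markers were more depleted than Mt1 and Mt2, although their sum was less so. The part of these cell types in the metallothionein values was not tested. In the comparisons between genotypes below, fewer cells of a type and less RNA per cell cannot be told apart in bulk RNA.

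The pulldown libraries were then compared between genotypes. They were not used to choose Mt2, but they come from the same 8 lysates as the input libraries that were, so its pulldown value is not independent of that choice. No member passed in edgeR, beside 0.641% of the 16859 genes tested (0.391% higher and 0.249% lower). At an unadjusted p under 0.05 there were 2 of 8 members and 3340 of all genes. DESeq2 called 1 member, Mt2, beside 6.32% of all genes. In 1 member, again Mt2, the groups did not overlap, beside 10% of all genes (4.93% with Lepr deletion lower). Of the 8 fold changes 7 were negative, with a median of -0.23 beside -0.01 over all genes.

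Mt2 was lower in the pulldown of pools 5 to 8, at 3.16 ± 0.110 CPM (SD, n = 4) against 4.47 ± 0.543 CPM in control. Its 4 values in the libraries labelled Lepr deletion, 3.07 to 3.31 CPM, lay below the lowest control value, 4.05 CPM, and were closer to each other than the control values. The log2 fold change of -0.49 (SE 0.10) had an adjusted p of 0.0604 by edgeR, just above the threshold. Over the alternatives it ran from -0.53 to -0.40 with an adjusted p from 0.00213 to 0.196. In 14 of 19 alternatives Mt2 did not pass. It passed with DESeq2 (-0.48, adjusted p = 0.00213), without a filter (-0.50, adjusted p = 0.0466, edgeR), with all 16 libraries in the fit (-0.50, adjusted p = 0.0132, edgeR) and without pool 5 (-0.49, adjusted p = 0.0329, edgeR). In that order these fits called 1065, 266, 508 and 1262 genes in all, against 108 in the main fit. The fit without pools 1 and 5, where Mt2 also passed, is given below. The authors' deposited table gives -0.48 with an adjusted p of 0.00247, and 7.52% of its genes with an adjusted p pass in this contrast. The summed astrocyte markers were at 602.633 to 680.139 CPM in control pulldown and at 591.123 to 656.215 CPM in the pulldown labelled Lepr deletion. By edgeR none of the 16 passed there and 3 were below 0.05 before adjustment. DESeq2 called 1, and 4 of the 16 values were negative. Among 8 marker lists, the sums of 2 separated the genotypes in pulldown. Microglial markers were at 12.9 to 13.2 CPM in control and 10.7 to 11.7 CPM in Lepr deletion, with 7 of 10 values negative and a median of -0.23. GABAergic markers were at 2745 to 3387 CPM in control and 3391 to 3657 CPM in Lepr deletion, with 4 of 9 values negative and a median of 0.05. Vascular sums overlapped, at 4.68 to 8.41 and 7.22 to 19.7 CPM, with 10 of 11 values positive and a median of 0.57. Of the vascular markers, the endothelial junction gene Cldn5 was at 0 in every control pulldown library. With all pools, Cldn5 had too few counts to be tested between genotypes in either fraction, so nothing is read from its zeros. No gene of these lists passed by edgeR. Before adjustment 2 microglial, 3 GABAergic and 5 vascular genes were below 0.05, beside 19.8% of all genes, and DESeq2 called 0, 3 and 3. The part of these cell types in the Mt2 value was not tested.

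The other members did not pass. Mt1 was at 6.55 ± 1.28 CPM in control and 5.16 ± 0.477 CPM in Lepr deletion, a log2 fold change of -0.33 (SE 0.13, adjusted p = 0.183, edgeR), and the ranges overlapped. Mt3 was at 4.54 ± 0.360 and 3.66 ± 0.872 CPM, a log2 fold change of -0.30 (SE 0.15, adjusted p = 0.304, edgeR), with pools 5 and 6 at the control level and pools 7 and 8 below it. Slc30a1 had -0.19 (SE 0.10), Slc39a14 -0.16 (SE 0.11), Slc30a10 -0.03 (SE 0.06) and Mtf1 0.06 (SE 0.05), with adjusted p from 0.306 to 0.816 by edgeR. Slc30a3 had -0.28 (SE 0.47, adjusted p = 0.785, edgeR).

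Pools 1 and 5 were left out together because they lay toward the other genotype, so the remaining pools differ more by that choice, and 19.9% of all genes then passed. Of the members, 3 passed, all lower: Mt2 at -0.40 (adjusted p = 0.0264, edgeR), Slc30a1 at -0.31 (adjusted p = 0.0108, edgeR) and Slc30a3 at -1.22 (adjusted p = 0.00627, edgeR). Mt1 was then at -0.18 and Mt3 at -0.45. For Slc30a3 the difference depended on single pools and not only on these 2, at -0.98 without pool 5 and 0.074 without pool 3. The same fit called 7 of 10 SLC39 genes and 2 of 6 SLC30 genes outside the members, all lower. With all pools, 0 of both lists passed by edgeR, 4 SLC39 genes and 1 SLC30 gene were below 0.05 before adjustment, and the calls of DESeq2 were 2 and 0. The fold change was negative in 8 of 10 SLC39 genes, with a median of -0.15, and in all 6 SLC30 genes, with a median of -0.06.

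**Figure D4:**
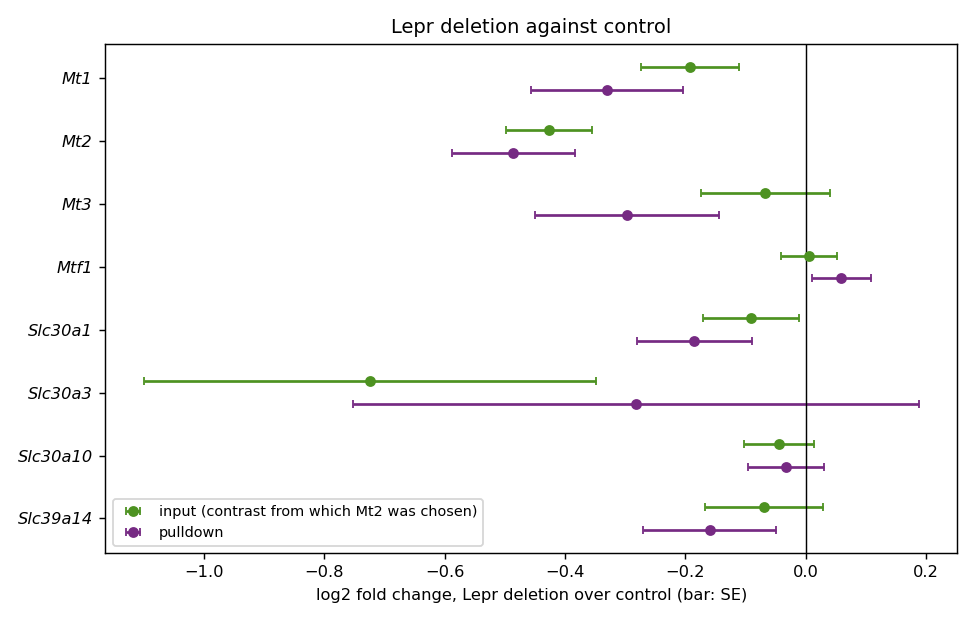
Log2 fold change of Lepr deletion over control for each member in input (green) and pulldown (purple), points with bars for SE. Mt2 lies at -0.43 in input, the contrast from which it was chosen, and at -0.49 in pulldown, and Slc30a3 has the widest bars.

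In input, where Mt2 was chosen, it was at 58.2 ± 4.34 CPM in control and 43.3 ± 4.19 CPM in Lepr deletion (SD, n = 4), a log2 fold change of -0.43 (SE 0.07). The lowest control library, pool 2 at 51.7 CPM, lay above the highest of the others, pool 8 at 48.6 CPM. Mt2 was the 1 member called by edgeR in this contrast, beside 0.231% of 17735 genes (0.0959% as lower), and the 1 member without overlap, beside 6.88% (2.82% with Lepr deletion lower), and nothing is read from these counts because the contrast chose the gene. Over the alternatives its value ran from -0.49 to -0.31, and without pools 1 and 5 it was -0.37. Mt1 was at 47.8 ± 5.72 and 41.8 ± 3.50 CPM, a log2 fold change of -0.19 (SE 0.08), and at -0.06 without those pools. Slc30a3 was at 0.834 ± 0.182 and 0.506 ± 0.238 CPM, a log2 fold change of -0.72 (SE 0.38), with pool 8 lowest at 10 counts. The remaining 5 members lay between -0.09 and 0.01.

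Some markers of other cell types also differed in these libraries. The summed level of the astrocyte markers was 4090.86 to 4598.92 CPM in control input and 3740.21 to 4001.78 CPM in the input labelled Lepr deletion, without overlap. Of the 16 markers 2 passed by edgeR, both lower: the gap junction gene Gja1 at -0.33 (adjusted p = 0.00649) and Acsl6 at -0.27 (adjusted p = 0.0481). DESeq2 called 4, 11 of the 16 values were negative and 5 positive, and the median of the list was -0.08. The highest was that of Gfap, an astrocyte filament gene, at 0.25 (adjusted p = 0.169, edgeR). The summed tanycyte and ependyma markers separated the genotypes in the opposite direction, at 108 to 128 CPM in control input and 130.1 to 145 CPM in Lepr-deletion input. None of these 12 passed by edgeR, 3 were below 0.05 before adjustment and DESeq2 called 1, with 10 positive values and a median of 0.18. The summed vascular markers were at 49.1 to 71.1 CPM in control input and 54.8 to 112 CPM in Lepr-deletion input, which overlap. Of these, all 12 tested had positive values and a median of 0.53, and none passed by edgeR or DESeq2, with 5 at an unadjusted p under 0.05. Of 16 glucocorticoid-induced genes none passed by edgeR, 6 were below 0.05 before adjustment and 2 passed in DESeq2, with a median of 0.14. Of 14 oxidative stress genes of the NRF2 type none passed by edgeR or DESeq2, 2 had an unadjusted p under 0.05, and the median was 0.05. Over all 17735 genes in this contrast, 2490 (14%) were below 0.05 before adjustment, and DESeq2 called 380. The sums of the other marker lists overlapped between genotypes, and no marker was at 0 throughout an input group. Their part in the Mt2 value was not tested.

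The change of enrichment between genotypes, pulldown over input in Lepr deletion minus the same in control, contains the contrast that chose Mt2 and is a description. It was -0.07 (SE 0.12) for Mt2, -0.15 (SE 0.16) for Mt1, -0.24 (SE 0.20) for Mt3 and 0.43 (SE 0.66) for Slc30a3. The remaining members lay between -0.11 and 0.04. None of the members was called by edgeR, beside 0.0108% of 18530 genes. The Mt2 fold change between genotypes was -0.43 in input, the value it was chosen for, and -0.49 in pulldown. Without pools 1 and 5 the value for Slc30a3 was -0.41 and that for Mt3 was -0.52.

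The balance between the metallothioneins differed between fractions, a ratio examined after the levels had been seen and given without a test. The TPM of Mt2 over that of Mt1 was 1.03, 1.17, 1.21 and 1.29 in the input of pools 1 to 4 and 0.599, 0.621, 0.710 and 0.723 in their pulldown. In pools 5 to 8 it was 1.03, 0.914, 1.01 and 1.03 in input and 0.590, 0.531, 0.611 and 0.638 in pulldown. Every pulldown library lay below every input library. Pool 1 was the control with the lowest ratio in input, at the level of pools 5 and 8. The ratio of Mt3 to Mt1 moved the other way, from 0.131 to 0.176 over the 8 input libraries to 0.485 to 0.887 over the 8 pulldown libraries. Estimated counts of Mt1 and Mt2 were whole to within 0.01 in 16 of 16 libraries and those of Mt3 in 15.

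**Figure D5:**
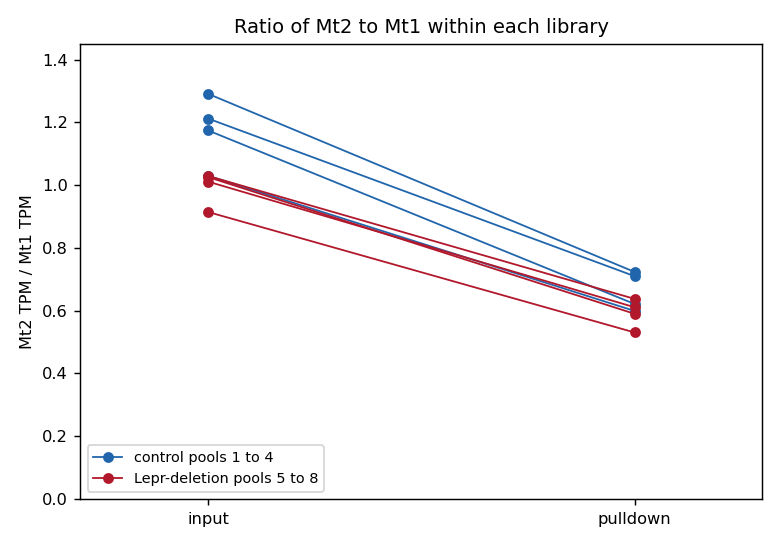
TPM of Mt2 divided by TPM of Mt1 in each library, with a line joining the input and pulldown libraries of a pool, control pools in blue and Lepr-deletion pools in red. All 8 lines fall, from 0.914 to 1.29 in input to 0.531 to 0.723 in pulldown.

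Mt1 and Mt2 also varied together within groups. Deviations of log2 CPM from the own group's mean correlated between Mt1 and Mt2 with r = 0.75 (rho = 0.65) over 16 libraries, which share pools and depth, and between Mt1 and Slc30a1 with r = -0.71 (rho = -0.65). These are descriptions of 2 among 28 pairs of members. Over the 11188 genes with a mean log2 CPM of at least 2, those most like Mt1 in these deviations were Ube2e1 (r = 0.945), Rpl7 (0.944), Eif3f (0.944), Rab18 (0.924) and Pcbd1 (0.922). For Mt2 they were Gadd45a (0.885), Eef1e1 (0.879), Dvl3 (0.835), Cops4 (0.831) and Prr14 (0.826). For Mt3 they were Cox19 (0.871), Gm28050 (0.870), Phyhip (0.863), Tomm40l (0.848) and Rnf220 (0.832).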

How the data were processed

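RNA was measured in 16 libraries, 4 per group. The members and the 14 gene lists were chosen with earlier results of these data known. The submitters' processing notes name GRCm38, Salmon 1.10.1 and DESeq2 1.38.3, while the strand setting and annotation release are not given in the sources used here. Values deposited by the authors were Salmon's estimated counts by gene (not always whole), the same rescaled, and TPM. The authors also deposited log2 fold changes with adjusted p-values.

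Estimated counts were rounded and tested with edgeR 4.0.16 (R 4.3.3), quasi-likelihood, TMM scaling and filterByExpr (minimum count 10, minimum total 15), 2-sided, with Benjamini-Hochberg adjustment over all genes tested at 0.05. Each comparison of a pair of groups used its 8 libraries, and the difference of enrichment used 16. SE is the fold change divided by the square root of its F statistic. Scripts were checked on simulated counts. Genes named are the members, Lepr, Pnoc, up to 4 list genes with the smallest p among those passing, and for likeness the 5 genes of highest r. Slc17a7, Gfap, Cldn5 and the ratios between metallothioneins were added after their values were seen. Protein sequences were not used here.

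Input and pulldown of a pool share a lysate per the labels' protocols. Deviations of same-numbered libraries from their group means correlated at 0.08 to 0.59, above 0.1 in 7 of 8 pairs. Replicates of a group were distinct: chi-square divided by its degrees of freedom was 8.16 to 49.9 over 24 pairs of libraries. Each pool is of 4 animals, so p-values reflect spread between pools. The floor, 3 counts and for counting error only, equals 0.0469 to 0.0562 CPM in input and 0.0320 to 0.0395 in pulldown. Alternatives were RLE factors, library totals, DESeq2 1.42.0, no filter, a mean of at least 1 CPM, rescaled counts, limma 3.58.1 on log2(TPM + 1) and log2(TPM + 0.1), mitochondrially encoded genes removed, all 16 libraries in the fit, the pool as a block, and each library or pool left out. Leaving out pools 1 and 5 together was added after seeing the data.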

Additional observations from a re-analysis of the deposited data

Results flagged for a closer look

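In 2 of 32 sets of 4 libraries, 1 for each member and group, a single library lay far from the other 3, where about 1 in 20 sets, or 1.6, would do so by chance. Mt2 in control input had its lowest library in pool 2, at 51.7 CPM, while pools 1, 3 and 4 were at 59.6, 60.5 and 60.8 CPM. Slc30a3 in the pulldown labelled Lepr deletion had its highest library in pool 5, at 2.18 CPM, while pools 6, 7 and 8 were at 0.562, 0.778 and 0.567 CPM. Pool 5 is also 1 of the 2 pools that stood apart over all genes, and its part in the Slc30a3 value is given by the fit without it, where the pulldown difference between genotypes was -0.98 against -0.28 with it.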

How the results depend on the processing

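The counts of genes passing moved most. In pulldown, genotype called 108 genes, and 1065 with DESeq2, 266 without a filter, 16 with rescaled counts, 30 and 22 with limma on log2(TPM + 1) and log2(TPM + 0.1), 508 with all 16 libraries in the fit, 19 to 1262 with a library left out (556 without pool 1 and 1262 without pool 5) and 3363 without pools 1 and 5. In input it called 41, and 108 with library totals, 380, 261, 11, 22 and 20 in the order DESeq2, no filter, rescaled counts and limma, 19 to 402 with a library left out (402 without pool 1 and 337 without pool 5) and 1957 without pools 1 and 5. The difference of enrichment called 2, and 4 with RLE, 4 with library totals, 21 with DESeq2, 6 without a filter, 0 with rescaled counts, 6 with limma on log2(TPM + 1), 1 to 5 with a library left out and 87 without pools 1 and 5. The share of calls that were higher went from 61.1% to 39.5% in pulldown and from 58.5% to 87% in input with library totals. By CPM 1 member had a higher control mean in pulldown than in input, and 6 by TPM. With the pool as a replicate block the difference of enrichment called 4 genes, Slc30a1 passed in control at -0.13 and Slc30a3 in Lepr deletion at 0.90, and no other member's call changed. No paired analysis was possible because control and Lepr-deletion pools share no number, for the genotype comparisons.

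Of all values under the alternatives, 681 were labelled the same, 13 lost the call, 17 gained it, 31 changed sign and 15 moved. For genotype in input and the difference of enrichment, same meant only that a value stayed within the pooled SD of its groups. Values beyond that SD are those that moved. A change of sign was not counted there for members without a call. Mt3 in input, for example, ran from -0.12 to 0.062. In the other comparisons, values labelled the same kept direction and call. Signs changed in enrichment with another zero. With library totals they were 0.23 for Mtf1, 0.43 for Slc30a1 and 0.30 for Slc39a14 in control, and 0.19, 0.24 and 0.12 in Lepr deletion. On log2(TPM + 1) Mt3, Mtf1, Slc30a1, Slc30a10 and Slc39a14 were at 0.38, 0.89, 0.77, 0.32 and 0.58 in control and 0.046, 0.68, 0.62, 0.26 and 0.42 in Lepr deletion, and on log2(TPM + 0.1) at 0.39, 0.95, 0.84, 0.36 and 0.70, and 0.047, 0.72, 0.67, 0.29 and 0.50. For genotype in pulldown, Mtf1 was at -0.12 with rescaled counts, -0.11 and -0.12 with limma, and with a library left out Slc30a3 ran from -0.98 (without pool 5) to 0.074 (without pool 3) and Slc30a10 from -0.072 (without pool 1) to 0.0011 (without pool 4). The cause was not tested beyond the shift of the median. Slc30a3 had 10 to 184 counts a library and differed widely between pools of a group, and groups of 4 pools limit every genotype value.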
